A study of Mus musculus with 2 samples.

Results

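Ankyrins and spectrins build the submembrane skeleton of muscle fibres, and 7 of their genes were examined in the gastrocnemius of young mice. They were taken by name: the ankyrin genes Ank1, Ank2 and Ank3, the alpha-spectrin gene Sptan1, and the beta-spectrin genes Sptb, Sptbn1 and Sptbn4. The 7 genes are 7 of 55536 genes listed in the deposited tables, and their 125 transcripts are 125 of 141767. Muscle transcripts of these genes were the reason for the choice, but no other tissue was measured here, so whether a transcript is specific to muscle was not tested.

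Total RNA-seq of the gastrocnemius, a calf muscle, was made from B6CASTF1/J female mice, which are hybrids of C57BL/6J and CAST/EiJ, at an age of 14 days. The series has 1 group of 2 libraries, replicates 1 and 2, each from 300 ng of RNA with ERCC spike-ins. Both library descriptions name 3 females, but the sample text of replicate 2 says only "Female", so the labels do not settle whether animals were pooled, and spread between the libraries may be technical. With 1 group no conditions were compared. Values are given as replicate 1 and then replicate 2 unless stated.

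Spectrin is a long tetramer of alpha and beta chains that ties actin to the membrane. Ankyrins bind beta-spectrin through their middle part and grip channels, pumps and adhesion proteins through a stack of repeats at their amino-terminal end. Muscle is known also to make a small ankyrin 1 that lacks the repeats, sits in the membrane of the sarcoplasmic reticulum, the calcium store of the fibre, and binds titin of the contractile apparatus.

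Sequences that tell the 2 small ankyrin 1 forms apart are shown first, because these forms carried most of the ankyrin TPM, the length-corrected level used below. They come from GENCODE M21 (mm10) and are read 5′ to 3′ on the plus strand. The first coding exon has 219 coding bases that do not code in the repeat-bearing form Ank1-207. After it, Ank1-208 and the other small form Ank1-201 share coding bases with long Ank1 and then part. Their last coding bases after the shared exon are given next, with the stop codon in capitals. The end of Ank1-208 is at chr8:23141596-23141694, and that of Ank1-201 reaches from a longer form of the shared exon into the last exon of the gene (chr8:23141230-23148307 with an intron removed).
Ank1-208, end: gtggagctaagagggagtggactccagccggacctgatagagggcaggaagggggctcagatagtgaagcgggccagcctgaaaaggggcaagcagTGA
Ank1-201, end: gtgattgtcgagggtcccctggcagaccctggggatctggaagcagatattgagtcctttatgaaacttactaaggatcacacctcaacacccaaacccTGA

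All 3 ankyrin genes have transcripts that start inside the gene, past the exons that code for the repeats. A repeat takes 33 residues, and exons of 99 or 198 coding bases were counted as repeat exons. The longest forms compared, Ank1-207, Ank2-208 and Ank3-231, each have 17 such exons, while Ank1-208, Ank2-201 and Ank3-242 have 0. The first 60 coding bases of the internal-start forms of Ank2 and Ank3 are shown with bases that do not code in the repeat-bearing form in capitals, to show how much each start adds of its own.
Ank2-201: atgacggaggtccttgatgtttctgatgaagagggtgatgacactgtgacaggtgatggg
Ank3-242: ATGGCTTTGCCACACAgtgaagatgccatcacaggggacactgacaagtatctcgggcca
Ank1-208 opens with 219 bases of its own, and Ank3-242 (chr10, plus strand) with 16. Ank2-201 (chr3, minus strand) has 0: all of its 3150 coding bases lie in the same frame of Ank2-208, so its start codon is inside the long reading frame. Ank1-208 has 155 codons against 1878 in Ank1-207, Ank2-201 has 1050 against 3900 in Ank2-208, and Ank3-242 has 1174 against 1961 in Ank3-231. Ank2-208 includes a coding exon of 6198 bases, so its codon number is that of a giant form, described below.

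Levels are given as TPM, which corrects for transcript length so that genes can be set side by side. A short entry with few reads can still add much to the TPM of a gene. In replicate 1, Ank2-215 and Ank2-227, of 425 and 365 bases, had 92.4 and 48.9 of 3471 Ank2 counts. They held 10.1 and 6.53 of its 44.0 TPM. In the gene table, 6 of the 7 members reached 1 TPM in both libraries, against 21.5% of all annotated genes. Ank1 stood highest at 247 and 312 TPM (mean 279 ± 46.1 SD, n = 2). Ank2, which encodes ankyrin-B, had 44.0 and 47.8 TPM (45.9 ± 2.66, SD, n = 2). Ank3, which encodes ankyrin-G, known from the neuromuscular junction, costameres and the nodes of axons, had 48.9 and 38.2 TPM (43.5 ± 7.54, SD, n = 2). Ank3 was the only 1 of the 3 ankyrin genes whose TPM was lower in replicate 2.

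Among the spectrins, Sptbn1, the widely expressed beta-II chain, had the highest level with 62.5 and 63.6 TPM (63.1 ± 0.750, SD, n = 2). Sptb, the beta-I chain known from red cells and muscle, had 42.8 and 43.4 TPM (43.1 ± 0.361, SD, n = 2). Sptan1, the alpha-II chain that pairs with them, had 38.8 and 44.2 TPM (41.5 ± 3.83, SD, n = 2). Both beta chains differed little between the libraries. Sptbn4, the beta-IV chain of axon initial segments and nodes, had only 2 and 6 counts, or 0.02 and 0.03 TPM. At 2 and 6 counts no transcript pattern of Sptbn4 could be read, and it is left out of what follows.

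The order of the levels was checked with the intervals that the authors deposited beside each TPM, whose level is not given in the sources used here. Of the 21 pairs of members, 15 had intervals apart in the same direction in both libraries. Ank1 stood above all 6 others, Sptbn1 above all but Ank1, and Sptbn4 below all. The 4 genes between them, Ank2, Ank3, Sptan1 and Sptb, could not be ranked. Their 6 pairs comprise 5 that overlapped in at least 1 library and 1, Ank3 and Sptb, that changed order. The deposited TPM of Sptbn1 lay just above its own interval (60.2 to 62.4 and 61.5 to 63.5), because the interval surrounds a posterior mean. For Sptbn4 the intervals (0.0425 to 0.573 and 0.0523 to 0.518) also lay above the TPM.

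**Figure D1:**
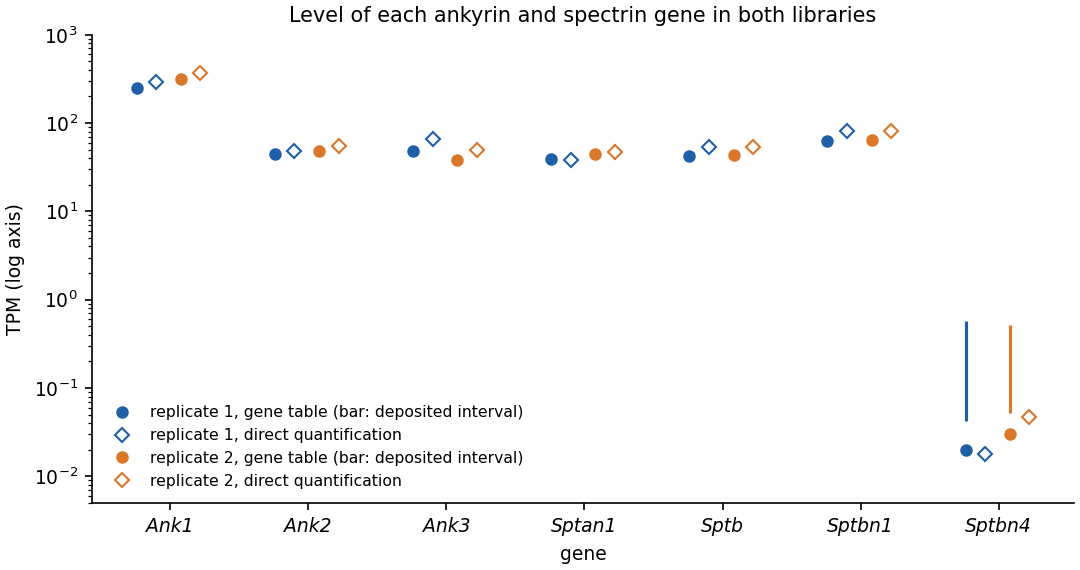
TPM on a log axis for the 7 genes in replicate 1 (blue) and replicate 2 (orange); filled points are the gene table with the deposited interval as a bar, open points the direct quantification. In the gene table Ank1 lies above the others at 247 and 312 TPM, 5 genes lie between 38.2 and 63.6 TPM, and Sptbn4 lies at 0.02 and 0.03 TPM. The bars of Sptbn4 lie above its filled points, and its open points are at 0.0181 and 0.0468 TPM.

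A second transcript table, made by the authors directly from the reads and called here the direct quantification, gave a like picture. Summed over transcripts, Ank1 had 289 and 365 TPM, Sptbn1 80.4 and 81.6, Ank3 66.2 and 49.9, Sptb 53.0 and 53.6, Ank2 47.7 and 54.8, and Sptan1 38.1 and 46.9. Ank1 and Sptbn1 were again the highest in both libraries, and Sptan1 the lowest of the 6.

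Small ankyrin 1 dominated the Ank1 gene. Of the 17 annotated Ank1 transcripts, 5 are shorter than 4000 bases (longest 3514) and 12 run from 4304 to 8366 bases. The short ones held 94.7% and 94.4% of the Ank1 TPM (94.6 ± 0.238, SD, n = 2), and 94.2% and 94.0% in the direct quantification. Because a short transcript yields fewer reads, their share of expected counts was lower, at 77.1% and 75.8%.

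Nearly all of this was Ank1-208, of 1740 bases, with the end shown above. It had 205 and 255 TPM in the transcript table, which is 83.0% and 81.8% of the gene, and 261 and 325 TPM in the direct quantification. Ank1-201, the small form with the other end, had 7.52 and 11.3 TPM (direct 11.2 and 17.9). Thus the 2 ends were far from equal: the direct quantification gave Ank1-208 90.4% and 89.1% of the gene and Ank1-201 3.88% and 4.91%. Ank1-211, an intron-retaining fragment of 416 bases that shares exons with Ank1-208, was assigned 21.5 and 28.0 TPM in the transcript table and is listed at 0 in the direct quantification. Its level therefore rests on how reads were divided.

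Long Ank1, the repeat-bearing form known from red cells, was present at a lower level. Ank1-207, of 8201 bases, had 8.41 and 9.35 TPM, and Ank1-202, of 8147 bases, had 3.66 and 6.68 TPM. These long forms start together and differ inside the coding part (5634 and 5544 coding bases). The posterior SD of the count was 273 and 465 reads for Ank1-207 and 240 and 447 for Ank1-202, so their split is poorly resolved. Ank1-205, which starts farther upstream, had 0.63 and 0.89 TPM. None of the other 11 Ank1 transcripts exceeded 0.15 TPM in replicate 1 or 0.41 in replicate 2, and 5 of them were listed at 0 in both libraries of the transcript table.

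Grouping the coding transcripts with an annotated start by where they begin gave 4 start regions in the 176 kb gene (chr8:22974844-23150497, plus strand). The first region had 0.10 and 0.46 TPM, and the second, 60.3 kb downstream, had 0.63 and 0.89. From the third, at 83.4 kb, came 12.1 and 16.0 TPM. The internal region at 164 kb, where Ank1-208 and Ank1-201 begin, gave 212 and 266 TPM. The direct quantification gave the same order, with 273 and 343 TPM at the internal start and 15.1 and 20.5 at the third. This grouping, like that of the other ankyrin and spectrin forms below, was made after values of these data had been seen.

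**Figure D2:**
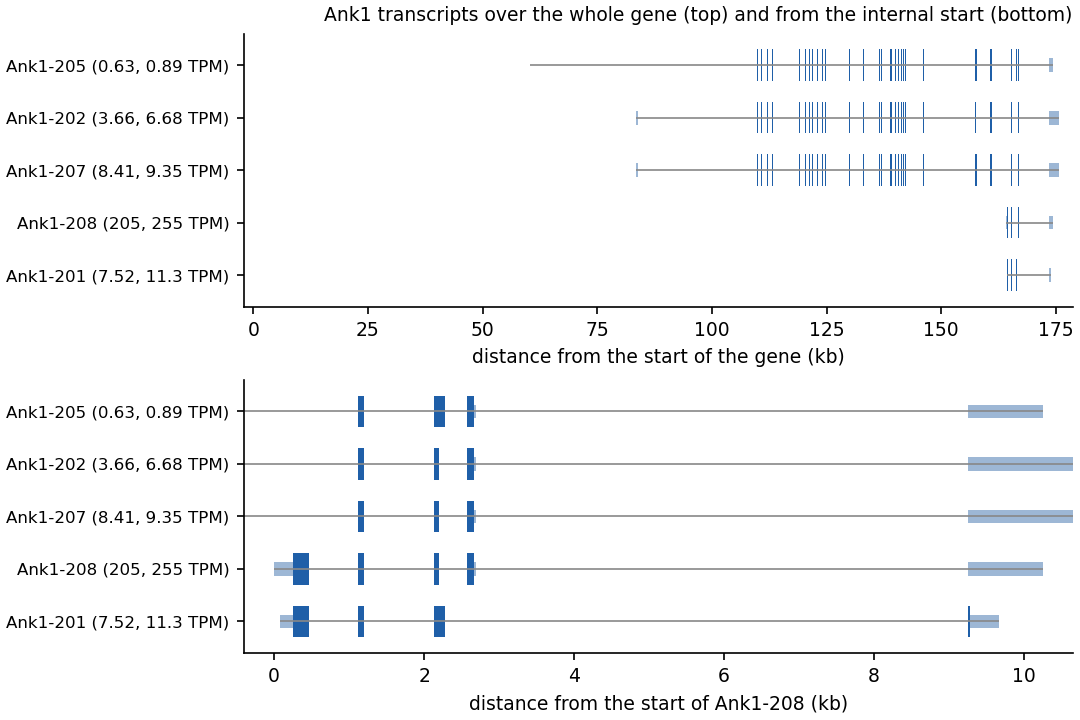
Exons of 5 Ank1 transcripts against distance in kb, from the start of the gene (top) and from the start of Ank1-208 (bottom), with tall boxes for coding and low boxes for untranslated parts and with the TPM of replicates 1 and 2 beside each name. The small forms Ank1-208 and Ank1-201 begin 164 kb into the gene, past the repeat exons, and Ank1-208 has the highest TPM of the 5 at 205 and 255.

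Ank1-208 lies wholly within the span of Gm15816, an antisense gene on the other strand (chr8:23138794-23149585) with 3.78 and 7.05 TPM. Whether the counting used the strand is not given in the sources used here, so reads of that span could not be told apart by strand. The microRNA gene Mir486 lies in intron 4 of Ank1-208 and had 1 and 0 counts, in libraries not made for RNAs of that size.

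Internal starts took a smaller and differing share of the other ankyrin genes. Transcripts were called internal-start when they are protein-coding with an annotated start, hold no repeat exon and begin past at least 10 of them, and repeat-bearing when they hold at least 5. Of the TPM in both classes together, the internal-start class took 94.3% and 93.9% in Ank1 (3 transcripts), 48.7% and 47.4% in Ank2 (1 transcript) and 54.6% and 32.6% in Ank3 (9 transcripts). The direct quantification gave 94.4% and 94.0%, 48.6% and 49.0%, and 55.2% and 32.1%. The Ank1 and Ank2 shares moved by under 2 percentage points between the libraries, while that of Ank3 was far lower in replicate 2 by either method.

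In Ank2 the internal-start transcript Ank2-201, of 5775 bases, was the leading transcript in both libraries and both quantifications. It had 11.4 and 10.5 TPM in the transcript table (25.8% and 21.9% of the gene) and 15.4 and 15.3 TPM in the direct quantification. The 8 repeat-bearing Ank2 transcripts together had 12.0 and 11.6 TPM. Among them Ank2-218, which has no annotated end, had 5.78 and 4.05 TPM, and Ank2-220, also without one, had 3.19 and 4.24. The largest remainder of Ank2 fell on short coding fragments. Ank2-215, of 425 bases, had 10.1 and 9.81 TPM, and Ank2-227, of 365 bases, had 6.53 and 6.50 TPM in the transcript table but is listed at 0 in the direct quantification. Ank2-206, of 561 bases, had 0.18 and 3.35 TPM against 3.86 and 7.81 in the direct quantification.

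Windows around annotated starts, taken from RefSeq (GRCm38.p6) as 250 bases before to 50 bases after each start, were available for 5 of the 7 members and gave 12 windows. Windows of the internal start and of an upstream start of Ank2, and that of Sptb, are shown because each serves a leading or long form. E-boxes (CANNTG on either strand), the sites bound by MyoD-type factors, are in capitals. All 3 windows are on the minus strand.
Ank2, internal start, chr3:126998403-126998702: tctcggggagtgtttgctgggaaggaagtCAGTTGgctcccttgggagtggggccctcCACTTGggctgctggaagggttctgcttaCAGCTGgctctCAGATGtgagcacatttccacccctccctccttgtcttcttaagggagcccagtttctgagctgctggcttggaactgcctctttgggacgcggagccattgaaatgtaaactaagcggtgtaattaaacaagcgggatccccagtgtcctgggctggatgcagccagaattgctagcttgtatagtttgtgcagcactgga
Ank2, upstream start, chr3:127409009-127409308: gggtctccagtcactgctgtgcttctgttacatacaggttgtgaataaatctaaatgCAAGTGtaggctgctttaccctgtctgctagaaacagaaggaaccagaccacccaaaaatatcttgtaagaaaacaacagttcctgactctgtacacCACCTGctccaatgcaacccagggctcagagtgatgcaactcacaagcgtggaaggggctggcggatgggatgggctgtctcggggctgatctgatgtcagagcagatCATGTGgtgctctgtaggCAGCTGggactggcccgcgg
Sptb, chr12:76710498-76710797: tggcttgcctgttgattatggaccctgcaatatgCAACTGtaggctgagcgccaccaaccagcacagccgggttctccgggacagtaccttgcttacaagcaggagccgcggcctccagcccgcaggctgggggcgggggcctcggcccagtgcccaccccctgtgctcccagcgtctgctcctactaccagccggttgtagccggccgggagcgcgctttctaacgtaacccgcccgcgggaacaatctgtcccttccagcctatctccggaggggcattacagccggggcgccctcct
The RefSeq starts of these windows lie 10 bases from that of Ank2-201, 1 base from that of Ank2-208 and 0 bases from that of Sptb-201. Both Ank2 windows shown hold 4 E-boxes and the Sptb window holds 1. Of the Ank2 windows not shown, chr3:126943337-126943636 holds 2 E-boxes. The most upstream one, chr3:127499066-127499365, holds 0 E-boxes and 1 TATAAA. Of all 32851 windows, 72.3% hold an E-box and 6.49% hold 4 or more. TATAAA had no match on either strand of the 3 windows shown, nor did the M-CAT letters CATTCC or the MEF2 and CArG sites, searched by consensus. Of all windows, 13.6% hold TATAAA while 14.7% hold the letters CATTCC, 3.19% the MEF2 consensus and 1.63% the CArG consensus. These matches describe letters only and nothing was measured at these starts beyond transcript levels.

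Ank3 had no clear leading transcript. Ank3-240, repeat-bearing with 5421 coding bases, led the transcript table with 8.88 and 7.41 TPM (18.2% and 19.4% of the gene), while the direct quantification put Ank3-242 first in replicate 1 and Ank3-231 first in replicate 2. Ank3-231, also repeat-bearing, had 8.01 and 6.54 TPM (direct 9.999 and 8.27). Ank3-239 was listed at 0 in replicate 1 and had 4.24 TPM in replicate 2, but 5.86 and 8.26 TPM in the direct quantification. Single Ank3 transcripts were thus unevenly resolved, and sums over classes are firmer.

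The 9 internal-start Ank3 transcripts summed to 20.7 TPM in replicate 1 and 9.40 in replicate 2, or 28.3 and 12.0 in the direct quantification. Over the same libraries the 11 repeat-bearing ones went from 17.2 to 19.4 TPM, or 23.0 and 25.4. The drop touched the main internal-start forms: Ank3-242 had 7.84 and 5.71 TPM (direct 16.2 and 7.25), Ank3-237 had 7.47 and 0.10, and Ank3-219 had 3.28 and 2.31 (direct 10.02 and 3.40). Ank3-237 received under 1 TPM in the direct quantification in both libraries, so its own change depends on the method, whereas the class sum did not.

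**Figure D3:**
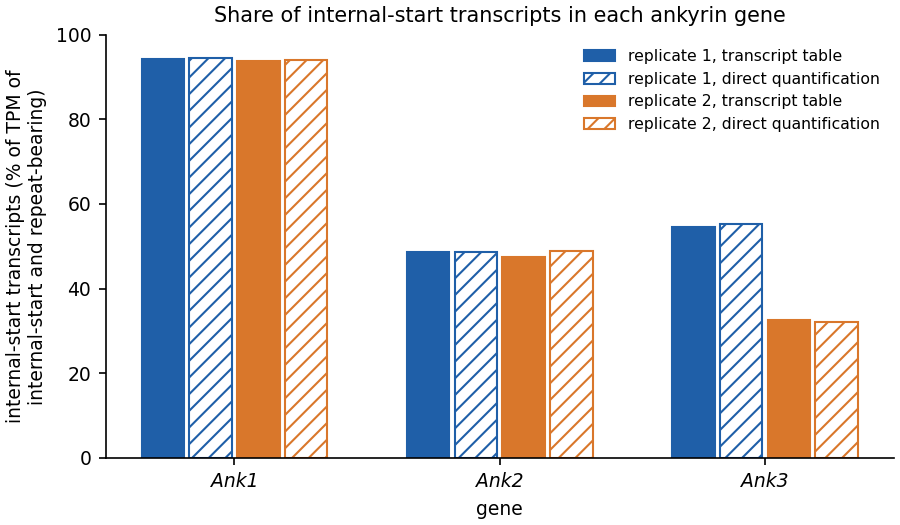
Share of internal-start transcripts in the TPM of internal-start and repeat-bearing transcripts (percent) for Ank1, Ank2 and Ank3, by replicate (color) and quantification (filled or hatched). Ank1 stands near 94% and Ank2 between 47.4% and 49.0% in every bar, while Ank3 is at 54.6% and 55.2% in replicate 1 and at 32.6% and 32.1% in replicate 2.

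Giant forms with a single very long coding exon, known from neurons, were rare. Transcripts with a coding exon over 2000 bases held 0.93% and 1.32% of Ank2 TPM (longest exon 6198 bases) and 2.19% and 2.12% of Ank3 TPM (longest exon 7674 bases).

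Because of its small form, Ank1 held 72.7% and 78.4% of the summed TPM of the 3 ankyrin genes, Ank2 13.0% and 12.0%, and Ank3 14.4% and 9.60%. Among repeat-bearing transcripts alone the order in the transcript table was another: Ank3 held 40.9% and 40.1%, Ank1 30.6% and 35.9%, and Ank2 28.5% and 24.0%. In the direct quantification Ank3 was also highest, with 23.0 and 25.4 TPM. There Ank1 had 16.2 and 21.9 TPM and Ank2 16.3 and 15.9, so Ank1 was above Ank2 only in replicate 2. Repeat-bearing does not mean full-length: most of the Ank2 class was Ank2-218 and Ank2-220, which have no annotated end, and Ank2-203 of 481 codons (2.11 and 2.49 TPM). Ank2-208, which has both ends annotated, had 0.41 and 0.61 TPM. It is a giant form with the 6198-base coding exon, so its level is not that of a long form without this exon.

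The spectrin chains were not in equal amount at the RNA level. Sptan1 had 0.367 and 0.411 times the summed TPM of the 5 beta-spectrin genes (0.389 ± 0.0310, SD, n = 2). The direct quantification gave 0.284 and 0.345, and expected counts gave 0.215 and 0.240. Part of the Sptan1 TPM lay on short entries with few reads. In replicate 1, Sptan1-206 and Sptan1-207 held 5.65 and 5.26 of the 38.8 TPM of Sptan1, from 108 and 52.9 of its 5747 counts. Sptbn5, another beta-spectrin gene, had 0.26 and 0.49 TPM.

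Both abundant beta chains mostly carried the long carboxy-terminal end, which holds the lipid-binding pleckstrin homology domain. The long and short ends part after a shared exon, shown here with 30 shared coding bases in lower case and the next 60 coding bases in capitals, all on the minus strand (chr12 for Sptb, chr11 for Sptbn1).
Sptb-201, long end: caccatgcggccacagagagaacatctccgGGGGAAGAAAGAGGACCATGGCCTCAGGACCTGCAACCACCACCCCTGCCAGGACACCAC
Sptb-202, short end: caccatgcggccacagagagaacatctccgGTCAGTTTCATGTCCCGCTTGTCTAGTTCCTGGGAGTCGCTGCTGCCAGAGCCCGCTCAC
Sptbn1-201, long end: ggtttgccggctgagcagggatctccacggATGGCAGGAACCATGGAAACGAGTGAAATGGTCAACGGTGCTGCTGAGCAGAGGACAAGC
Sptbn1-203, short end: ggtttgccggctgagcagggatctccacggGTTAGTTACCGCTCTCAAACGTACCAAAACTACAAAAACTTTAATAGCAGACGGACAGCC
Past the branch the long end of Sptb codes for 214 codons and its short end for 22, and the numbers for Sptbn1 are 224 and 28. Sptb-201, with the long end known from muscle and brain, had 42.1 and 42.3 TPM, which is 98.3% and 97.6% of the gene. Sptb-202, with the short end known from red cells, had 0.51 and 1.05 TPM (1.19% and 2.42%). Its posterior SD was 26.0 and 41.9 reads. The direct quantification gave Sptb-201 98.3% and 97.3%, so the long end prevailed by either method.

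Sptbn1-201 had 48.3 and 48.9 TPM, or 77.2% and 76.9% of the gene. Sptbn1-203, with the short end, had 3.03 and 3.07 TPM and 3.66 and 3.64 in the direct quantification. Sptbn1-202, which codes for the same number of residues as Sptbn1-201, had 8.36 and 9.09 TPM in the transcript table but 0.0108 and 0.0768 TPM in the direct quantification. The opposite held for Sptbn1-204, whose end is not annotated, with 0.62 and 0.47 against 12.0 and 13.2 TPM. Without Sptbn1-204, the long end had 94.92% and 94.97% in the transcript table and 94.4% and 94.4% in the direct quantification. With it counted as not long, these became 93.9% and 94.2% against 79.7% and 78.4%, so the share of the long end depends on that 1 transcript.

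Sptan1 has 3 small alternative coding exons, each a multiple of 3 bases. They are shown in capitals with 15 coding bases on each side, on the plus strand of chr2, since the forms of this gene differ by them.
60-base exon, chr2:30001100-30001159: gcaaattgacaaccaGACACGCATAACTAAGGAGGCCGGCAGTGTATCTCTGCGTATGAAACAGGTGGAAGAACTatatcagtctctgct
15-base exon, chr2:30014158-30014172: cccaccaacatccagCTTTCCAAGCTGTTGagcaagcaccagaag
63-base exon, chr2:30028644-30028706: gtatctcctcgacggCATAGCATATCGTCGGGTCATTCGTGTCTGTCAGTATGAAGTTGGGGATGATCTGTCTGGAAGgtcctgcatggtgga
Over the 6 full-length coding transcripts, the 60-base exon (20 residues) was in 28.8% and 40.2% of TPM, or 37.1% and 49.6% in the direct quantification. It was higher in replicate 2 by either method, and the gap between methods was of about the same size as that between libraries. The 15-base exon (5 residues) was in 53.5% and 47.9% (direct 55.3% and 53.1%). The 63-base exon (21 residues) was rare, at 6.18% and 3.81% (direct 7.21% and 3.54%).

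Whole Sptan1 transcripts were not resolved. Sptan1-201 led the transcript table with 8.55 and 13.9 TPM but had 5.23 and 1.75 in the direct quantification. There Sptan1-204 (12.2 and 14.9 TPM) and Sptan1-202 (8.77 and 14.9 TPM) led, against 7.74 and 2.09 and 3.12 and 0.96 TPM in the transcript table. Sptan1-203 had 4.11 and 10.5 TPM (direct 2.87 and 2.69). The posterior SD of the count of Sptan1-201 was 370 and 394 reads. Of short entries, Sptan1-206, of 781 bases, had 5.65 and 8.14 TPM, and Sptan1-207, an intron-retaining entry, had 5.26 and 4.97 TPM and is listed at 0 in the direct quantification.

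**Figure D4:**
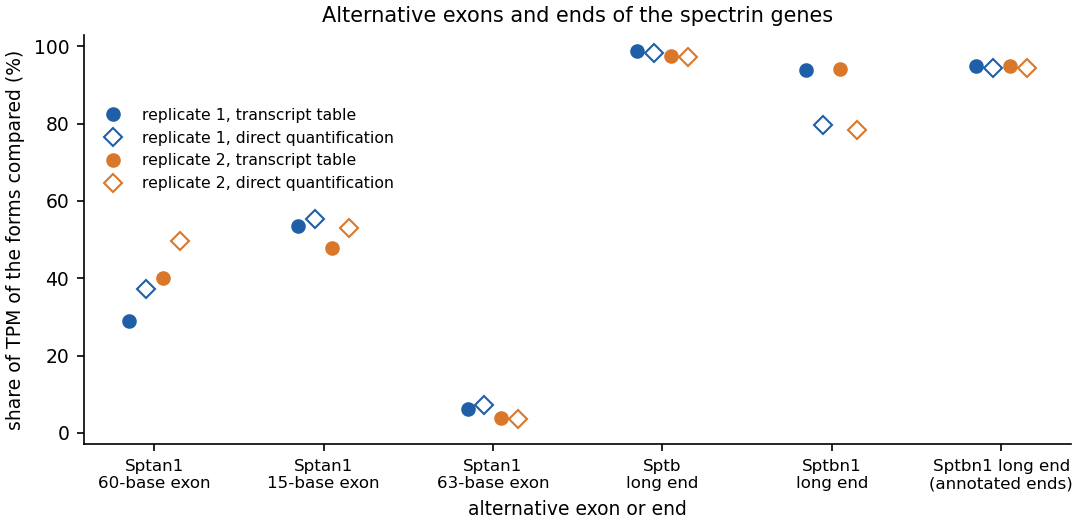
Share in percent of TPM for 3 alternative Sptan1 exons and for the long ends of Sptb and Sptbn1, with filled points for the transcript table and open points for the direct quantification in replicates 1 (blue) and 2 (orange). The long ends are above 93% except for Sptbn1 in the direct quantification when Sptbn1-204 is counted, at 79.7% and 78.4%, and the 63-base Sptan1 exon is at or under 7.21%.

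The libraries held 35592003 and 42105856 gene counts, of which the 7 members took 55779 and 68401. Counts of replicate 2 were set against replicate 1 after TMM scaling, as a log2 ratio with a 95% interval for counting error, and a ratio of at least 1.5-fold in either direction was taken as past the fold. Of the 6 members with a summed count of at least 20, 0 were past it, against 13.5% of 15734 genes. These 6 all had summed counts of at least 7499, and from a summed count of 200 the share of genes was 6.42%. With 1 library on each side the ratio compares the libraries and no test of it was made. The log2 ratio was 0.19 for Ank1 (0.15 to 0.22) and 0.02 for Sptan1 (-0.03 to 0.07). It was -0.16 for Ank2 (-0.22 to -0.09), -0.14 for Sptb (-0.18 to -0.11) and -0.13 for Sptbn1 (-0.16 to -0.10). These last 3 are positive with spike-in scaling (0.06, 0.08 and 0.09) and as TPM (0.12, 0.02 and 0.02), so they have no firm direction. Spike-in scaling shifted all log2 ratios up by 0.22.

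Ank3 had the lowest ratio of the members, -0.46 (-0.51 to -0.42), and remained negative with each scaling (-0.24 with spike-ins and -0.36 as TPM). Split by class, its internal-start transcripts had 2602 and 1301 expected counts and a log2 ratio of -1.37 (-1.47 to -1.27), which is 2.58-fold more in replicate 1. Its repeat-bearing transcripts, with 3930 and 4848 counts, had -0.07 (-0.13 to -0.01), and 0.15 with spike-ins. The internal-start ratio was -1.37 with DESeq2 size factors, -1.36 in the direct quantification, -1.15 with spike-ins and -1.14 as TPM. No other class of the 6 passed the fold: Ank1 had 0.16 for internal-start and 0.28 for repeat-bearing transcripts, and Ank2 had -0.28 and -0.17. The shares of genes past the fold given above are of whole genes. No such share was computed for transcript classes, so how unusual the Ank3 class ratio is was not tested. The intervals cover counting error only, not the division of reads among transcripts.

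**Figure D5:**
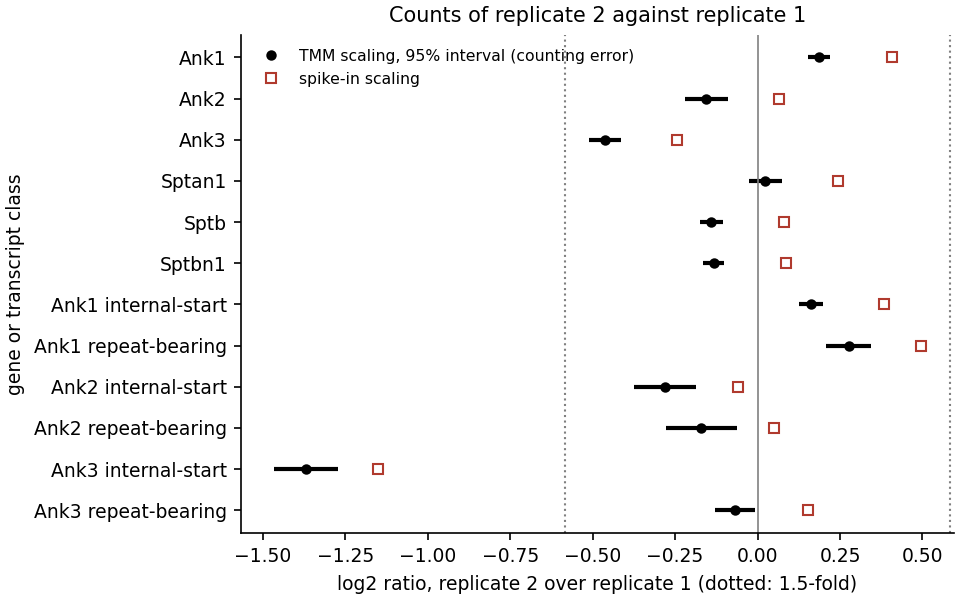
Log2 ratio of replicate 2 over replicate 1 for 6 genes and 6 ankyrin transcript classes; black points with bars are TMM-scaled with 95% counting intervals, open squares use spike-in totals, and dotted lines mark 1.5-fold. The internal-start Ank3 class alone lies past the fold, at -1.37, and the squares lie 0.22 to the right of the points.

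Markers of some other cell types moved between the libraries too, and their part in these ratios was not tested. Against a background of 13.5% of genes past the fold, 0 of 5 endothelial, 0 of 5 macrophage and 1 of 5 fibroblast markers were past it, with summed levels of 175 and 171, 38.2 and 44.1, and 2117 and 3383 TPM. Of 10 Schwann cell and node markers, 8 were past 1.5-fold, all higher in replicate 2, none was at 0, and their summed level was 272 and 708 TPM. The 14 red cell markers summed to 2951 and 1497 TPM, and 7 of the 8 with enough counts were past the fold, all lower in replicate 2, while Kel was at 0 in replicate 1 and Rhag in replicate 2. Their median log2 ratio was -1.16, against 0.01 over all 15734 genes. The log2 ratio was 0.28 for repeat-bearing Ank1 and -0.14 for Sptb, or 0.50 and 0.08 with spike-ins. What red cells added to either was not tested. Of 8 neuron markers 1, Map2, reached 1 TPM in both libraries, and Snap25 and Nefl were at 0 in replicate 1. All 7 skeletal muscle fibre markers were abundant (363 TPM or more) and 0 were past the fold. Of 5 heart muscle markers Myl7, Nppa and Nppb were at 0 in both libraries, while Myh6 had 63.3 and 104 TPM, a log2 ratio of 0.64 that was past the fold, and Tnnt2 had 9.31 and 13.6 TPM. In whole tissue, fewer cells of a type and less RNA per cell cannot be told apart.

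Partners of the members were described from lists of known genes. All 6 small ankyrin 1 partners reached 1 TPM in both libraries. Titin (Ttn), the giant spring of the sarcomere, had 1963 and 2041 TPM, and Obsl1, a cytoskeletal adaptor, had 26.0 and 33.9. Small ankyrin 1 can be degraded through Kctd6 and Cul3, which had 3.14 and 3.63 and 76.6 and 81.2 TPM. Sarcolipin (Sln), a small regulator of the calcium pump, was the only partner past the fold, with 1.25 and 8.18 TPM.

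Of 17 membrane proteins that bind ankyrins, 8 reached 1 TPM in both libraries, and 4 of the 15 with enough counts were past the fold, against 21.5% and 13.5% of all genes as given above; the same shares are the background of the other partner counts. Among them were the dystroglycan gene Dag1 with 99.8 and 116 TPM and Scn4a, the sodium channel of muscle fibres, with 94.2 and 88.4 TPM. All 10 cytoplasmic partners reached 1 TPM and 0 were past the fold, led by plectin (Plec, 260 and 252 TPM), the deubiquitinase gene Usp9x (56.8 and 61.1) and the dynactin subunit gene Dctn1 (51.5 and 58.7). A list of 12 adducins, band 4.1 family genes and related genes also included Epb42 and Dmtn. Of these 12, 8 reached 1 TPM and 0 of 11 with enough counts were past the fold. Add1 had 33.4 and 45.5 TPM, Epb41 31.8 and 30.8, and Epb41l2 24.0 and 32.4. The median log2 ratios were -0.04, 0.15, -0.03 and 0.13 for these 4 lists in the order given, against 0.01 over all genes.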

How the data were processed

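Total RNA-seq tables of 2 libraries of gastrocnemius were used, with mm10 and GENCODE M21 per the labels and notes. Which aligner and quantifiers ran, their versions, the strand setting and the interval level are each not given in the sources used here. Per the file headers, the authors' gene and transcript tables hold expected counts, TPM and isoform percent. The deposited TPM interval bounds are a signal on the TPM scale. A second deposited table holds estimated counts and TPM, summed per gene here. The mice carry CAST/EiJ alleles, whereas mm10 is C57BL/6J sequence.

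The libraries held 35592003 and 42105856 expected counts on genes, besides 285877 and 317175 on spike-ins. A further 26248 rows that name no gene held 1 and 0 counts and were left out. Expected counts were rounded to whole numbers and scaled with TMM (edgeR 4.0.16; factors 0.957 and 1.05) with a prior count of 0.5. DESeq2 1.42.0 gave size factors as an alternative. Intervals are exact Clopper-Pearson at 95% and cover counting error only. They were checked on simulated counts that varied by counting error alone, which cannot show errors from the division of reads or from scaling. Software was Python 3.11.15 with scipy 1.17.1, pandas 2.3.3, matplotlib 3.10.9 and numpy 2.4.6, besides R 4.3.3.

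With 1 group there was no test, and a fold of 1.5 with a summed count of at least 20 described ratios. Levels have no filter. Named were all members, transcripts with at least 10% of a member in a library and quantification, all Ank1 transcripts, the other spectrins, small ankyrin 1 partners and the top 3 genes by mean TPM of each other partner list, of which some items are not reported here. Ank2-203, Ank2-208, Sptb-202, Sptbn1-203 and the marker genes named were chosen after their values were seen. Members and lists were chosen with earlier results of these data known. Sequences are from GENCODE M21 transcripts and, for promoters, RefSeq.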

Additional observations from a re-analysis of the deposited data

How the results depend on the processing

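With both libraries kept, 39 of 86 changes of a processing choice moved a value by less than the spread between libraries or stayed inside its counting interval, and 47 moved further. A reversal was counted only for ratios past the fold. Because 0 of the 6 member ratios were past it, none could be counted. The sign of 3 of the 6 differed between scalings. Leaving out a library leaves the value of the other, given in the report, and with 2 libraries cannot move a mean past their SD, so it says nothing about stability. Alternatives for transcript classes and spectrin exons were chosen after seeing the data.

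The direct quantification gave mean levels of 327 (Ank1), 51.2 (Ank2), 58.0 (Ank3), 53.3 (Sptb) and 81.0 TPM (Sptbn1). Posterior means were 42.4 for Sptb and 61.9 for Sptbn1. Nuclear coding genes held 47.5% and 50.1% of TPM, and rescaling to them gave 571 (Ank1), 94.0 (Ank2), 89.5 (Ank3), 84.8 (Sptan1), 88.3 (Sptb) and 129 TPM (Sptbn1). Expected counts in place of TPM put the ankyrin shares at 59.1% (Ank1), 14.2% (Ank2) and 26.6% (Ank3), and the direct share of Ank2 was 11.7%. The alpha to beta ratio was 0.315 by direct TPM and 0.228 by counts. Short Ank1 held 94.1% both by direct TPM and over coding transcripts, and 76.5% of counts.

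For leading transcripts the direct quantification gave 89.7% (Ank1-208), 30.1% (Ank2-201), 11.9% (Ank3-240), 8.74% (Sptan1-201) and 75.6% (Sptbn1-201), and 4 of 6 members kept their leading transcript. Posterior means gave 16.6% (Ank3-240), 97.4% (Sptb-201) and 73.6% (Sptbn1-201). Over coding transcripts alone the shares were 90.4% (Ank1-208), 21.6% (Ank3-240) and 79.8% (Sptbn1-201).

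With spike-in totals the log2 ratios were 0.41 (Ank1), 0.0648 (Ank2), -0.24 (Ank3), 0.24 (Sptan1), 0.0795 (Sptb) and 0.0877 (Sptbn1), and as TPM 0.34, 0.12, -0.36, 0.19, 0.0171 and 0.0242. The share of genes past 1.5-fold was 34.5% with no filter and 6.42% from a summed count of 200. The cause of these shifts was not tested. No paired analysis was possible because there is 1 group. At 2 and 6 counts, depth limits Sptbn4.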
